A study of Mus musculus with 24 samples.

Results

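Heat shock chaperones of the cytosol and of mitochondria, with the co-chaperones that work beside them, were followed over the day in 2 tubule segments of the mouse kidney. The genes came from a list of 39 symbols, of which 37 were measured, among 18194 genes in all. Each gene was read from 1 probe set, the one that names a single gene symbol and has the highest mean over all 24 arrays. Hsp90ab1 and Hsf1 were on the list and were not analysed here. The list follows gene function and uses no measured value as a rule, but it was drawn up with earlier results of these data known. Every measured member is accounted for by its role, in 9 role groups that run from the HSP70 family to the chaperonin TRiC.

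The study profiled circadian gene expression in the distal nephron and the collecting duct. Tubules were microdissected after collagenase treatment from left kidneys of male C57BL/6J mice weighing 25-30 g, whose age the labels do not give, on a cycle of 12 h light and 12 h dark. One segment was the distal convoluted tubule dissected along with the connecting tubule (DCT/CNT). The other was the cortical collecting duct (CCD). In each segment 2 pools were hybridized at each of 6 zeitgeber times (ZT), counted in hours from lights on, with lights off at ZT12. That gave 12 groups and 12 arrays per segment. The labels name no drug, diet change or altered gene in any group. RNA of 5 animals per time went into the pools, and 10 ng was amplified per array. The labels do not say whether the pools of a time share animals, so p-values rest on the spread between pools and not between animals. In the rhythm test, a cosine fit, the error also takes in how far the group means depart from the fitted curve.

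Heat shock proteins bind unfolded protein chains and help them fold, keep them from clumping or pass them on for degradation. HSP70 proteins work with J proteins, which deliver the chain and start ATP hydrolysis, and with HSP110 proteins, which exchange the nucleotide. HSP90 takes over partly folded clients such as steroid receptors and kinases, with help from co-chaperones. Many of these genes are switched on by heat shock factor 1, which binds head-to-head repeats of a short unit in their promoters, and body temperature of mice, which is higher in the active dark phase, is known to reach this factor in liver. Tubule cells of the distal nephron also meet changes in salt and urea that chaperones buffer.

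All values are log2 RMA values, and levels are not compared between genes. Precision is limited by the number of arrays. In the deposited values the marker lists matched the labels, at an adjusted p under 0.05. Of 9 DCT and CNT markers 8 were higher in DCT/CNT, against 30.4% of all genes. All 8 principal cell markers were lower there, against 47% of all genes. The principal cell count depended on the scale of the arrays. It was 7 lower and 1 higher with equal medians, 6 and 0 after quantile normalization, and 6 and 1 after cyclic loess. The count of DCT and CNT markers that were higher stayed at 8 under each scaling. Across genes, which are not independent replicates, r between the pools of 1 group ranged from 0.988 to 0.995. Pool 1 of ZT16 stood apart in both segments. The mean of the 6 thick ascending limb markers was 7.18 in that pool and 8.71 in pool 2 in DCT/CNT, and 6.08 and 8.35 in CCD. The mean of the DCT and CNT markers in DCT/CNT was 10.46 in pool 1 and 11.56 in pool 2 of ZT16, and at ZT8 it was 10.44 and 10.49. The 12 proximal tubule markers averaged 6.83 to 8.35 on DCT/CNT arrays and 6.79 to 8.43 on CCD arrays, so RNA of other tubule segments was present to a varying degree. Fewer cells of a type and less RNA per cell cannot be told apart in such pools.

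The promoters of several members hold the binding element of heat shock factors, and they are shown because 4 of the 5 genes called rhythmic below carry it. A window from 250 bases before to 50 bases after the start of transcription was given by RefSeq (GRCm38.p6) for 32 of the 37 members. The element searched was GAANNTTCNNGAA on both strands, which is 3 alternating units of GAA and TTC, and capitals mark its matches.
Hsph1, chr5:149636266-149636565, minus strand: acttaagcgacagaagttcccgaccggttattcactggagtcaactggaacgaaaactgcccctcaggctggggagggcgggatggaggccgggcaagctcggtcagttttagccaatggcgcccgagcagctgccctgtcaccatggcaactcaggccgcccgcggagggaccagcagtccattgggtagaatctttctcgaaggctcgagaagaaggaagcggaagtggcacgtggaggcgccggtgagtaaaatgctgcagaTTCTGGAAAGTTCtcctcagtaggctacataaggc
Chordc1, chr9:18292017-18292316, plus strand: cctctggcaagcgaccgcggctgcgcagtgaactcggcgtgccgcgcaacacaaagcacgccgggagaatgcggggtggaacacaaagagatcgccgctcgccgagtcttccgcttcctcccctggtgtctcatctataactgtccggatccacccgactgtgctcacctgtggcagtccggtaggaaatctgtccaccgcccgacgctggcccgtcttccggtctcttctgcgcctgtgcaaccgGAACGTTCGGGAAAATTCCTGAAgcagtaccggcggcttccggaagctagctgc
Hspe1, chr1:55087898-55088197, plus strand: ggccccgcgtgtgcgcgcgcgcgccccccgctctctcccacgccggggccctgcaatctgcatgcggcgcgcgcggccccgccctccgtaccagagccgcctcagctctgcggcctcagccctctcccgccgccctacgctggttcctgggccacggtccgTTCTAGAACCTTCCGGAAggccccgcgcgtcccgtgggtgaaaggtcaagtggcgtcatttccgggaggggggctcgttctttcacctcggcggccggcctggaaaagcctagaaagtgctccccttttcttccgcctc
Dnajb6, chr5:29735648-29735947, plus strand: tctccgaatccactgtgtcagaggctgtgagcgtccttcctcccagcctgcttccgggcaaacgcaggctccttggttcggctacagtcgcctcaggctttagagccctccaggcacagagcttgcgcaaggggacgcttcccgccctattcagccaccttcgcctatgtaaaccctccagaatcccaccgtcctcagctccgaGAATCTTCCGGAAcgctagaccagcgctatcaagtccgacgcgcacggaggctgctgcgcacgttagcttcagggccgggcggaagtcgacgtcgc

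In Hsph1 the match lay downstream of the start, at bases 15 to 27. In Chordc1 several matches overlapped in a run of 23 bases that spanned the start, from base -4 to base 18. Hspd1 and Hspe1 are transcribed away from each other on mouse chromosome 1, and their windows share 285 bases. The same run of 18 bases reads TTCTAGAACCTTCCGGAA in Hspe1 and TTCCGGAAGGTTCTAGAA in Hspd1, whose window is chr1:55087883-55088182 on the minus strand. The element was found in 5 of the 32 members with a window (15.6%) and in 88 of 14453 genes with a window (0.609%). A match is a description of the sequence and not evidence of binding.

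The inducible HSP70 genes Hspa1a and Hspa1b lie near each other on chromosome 17, and their windows are identical at 296 of 300 bases. Neither window holds the element of 3 units, and capitals in the Hspa1a window mark the 1 match to the shorter GAANNTTC, at bases -104 to -97. That shorter pair was in 14 of 32 members and in 7.60% of all genes with a window. Near-identical copies can share probes, so the values of Hspa1a and Hspa1b are uncertain as separate measures.
Hspa1a, chr17:34972107-34972406, minus strand: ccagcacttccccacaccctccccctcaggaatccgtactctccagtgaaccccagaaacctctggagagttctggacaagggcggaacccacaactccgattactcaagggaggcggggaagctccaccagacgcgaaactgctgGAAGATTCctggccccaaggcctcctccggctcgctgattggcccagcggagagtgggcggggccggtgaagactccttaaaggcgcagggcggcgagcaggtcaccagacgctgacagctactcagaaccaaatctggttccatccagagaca

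Rhythm was tested by fitting a 24 h cosine to each segment, where amplitude is how far the fitted peak stands above the fitted mean, in log2 units. A gene was called at an adjusted p under 0.05 over all 18194 genes. In DCT/CNT 5 of 37 chaperone genes (13.5%) were called, against 6.57% of all genes, and all 5 had their fitted peak in the dark phase, against 2.8% of all genes called with such a peak. They were Hsph1, Chordc1, Hspd1, Hspe1 and Cct8. In CCD 1 of 37 (2.7%) was called, Hsph1, against 2.47% of all genes, so the CCD count was close to the background. With a dark-phase peak 1.15% of all genes were called in CCD, and 1.3% were called in both segments, as Hsph1 was. An unadjusted p under 0.05 was reached by 16 members (43.2%) in DCT/CNT and 17 (45.9%) in CCD, against 24.5% and 14.2% of all genes. Of the calls in DCT/CNT 1 was left when that segment was fitted alone and cyclic loess scaling gave 8, while CCD fitted alone gave 4. Leaving out 1 array gave 2 to 9 called members in DCT/CNT, with 2 without either pool of DCT/CNT at ZT8 and 9 without pool 1 of DCT/CNT at ZT20, and 0 to 2 in CCD.

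Hsph1 encodes HSP110, the nucleotide exchange factor of HSP70, and had the smallest adjusted p of the members in both segments. In DCT/CNT its log2 values in pools 1 and 2 were 11.47 and 11.40 at ZT0, 11.04 and 11.10 at ZT4, 11.08 and 11.01 at ZT8, 11.27 and 11.34 at ZT12, 12.20 and 11.81 at ZT16 and 11.59 and 11.51 at ZT20. In CCD they were 11.88 and 11.84 at ZT0, 11.48 and 11.56 at ZT4, 11.55 and 11.75 at ZT8, 11.83 and 11.96 at ZT12, 12.53 and 12.29 at ZT16 and 11.99 and 11.94 at ZT20. In each segment both ZT16 pools lay above all 10 other arrays. The group mean at ZT16 was 1.95-fold that at ZT8 in DCT/CNT and 1.85-fold that at ZT4 in CCD. The fitted amplitude was 0.42 (SE 0.07) with a peak at ZT17.7 in DCT/CNT (limma adjusted p = 0.00275), and 0.36 (SE 0.07) with a peak at ZT16.8 in CCD (limma adjusted p = 0.0153). A second Hsph1 probe set gave amplitudes of 0.39 in DCT/CNT and 0.40 in CCD. Leaving out any 1 array or 1 time kept the call in DCT/CNT. The CCD call was lost without pool 1 of CCD at ZT16 (limma adjusted p = 0.0668), one of the pools that stood apart, and without ZT4 or ZT8.

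**Figure D1:**
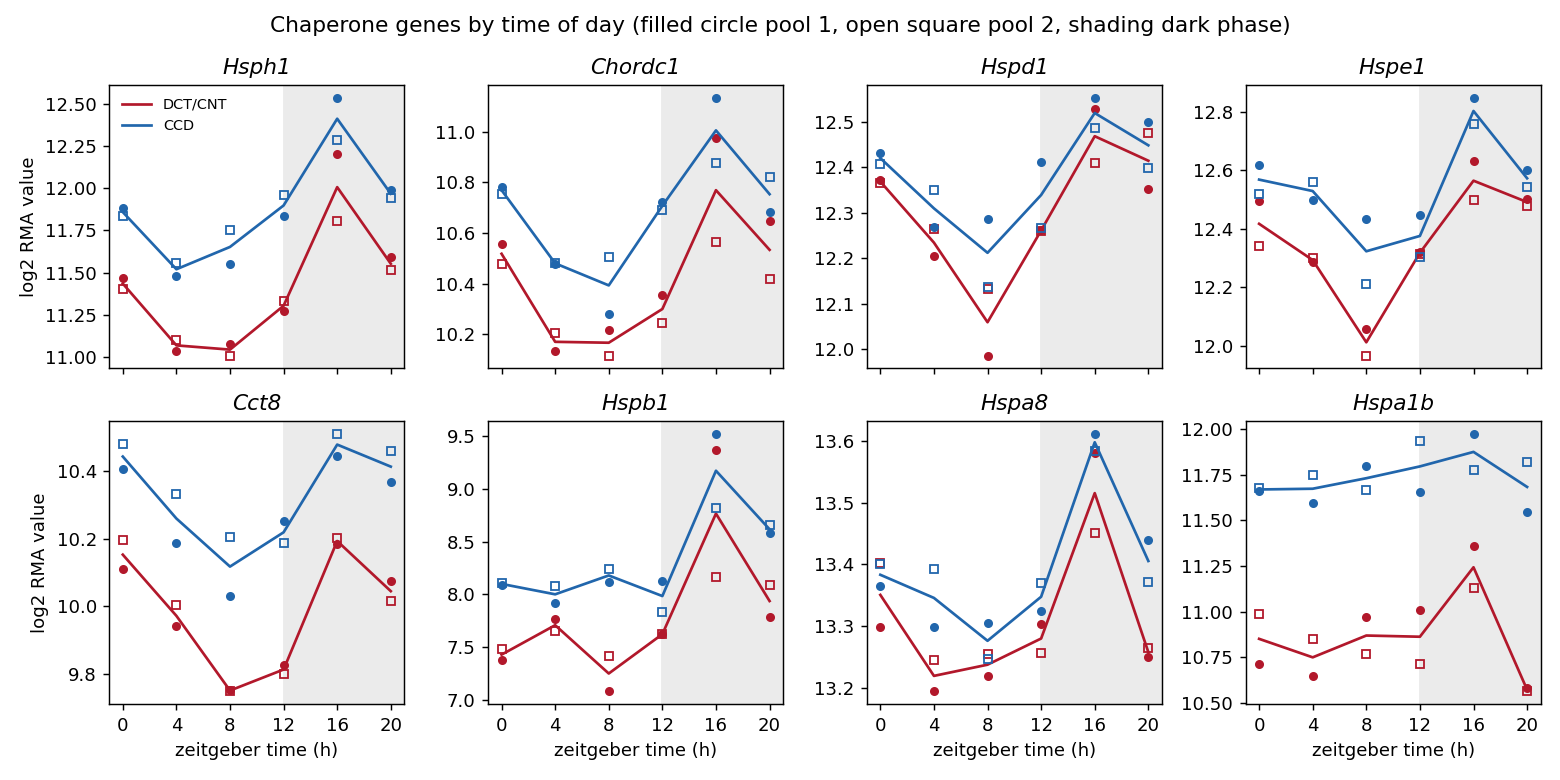
Log2 RMA values (vertical axes, with their own range in each panel) of 8 chaperone genes against zeitgeber time in hours, with pool 1 as filled circles, pool 2 as open squares and lines through the means of the 2 pools. Hsph1 was highest at ZT16 in both segments, and Hspa1b was lower in DCT/CNT than in CCD on every array.

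The called co-chaperone was Chordc1, which encodes CHORD-containing protein 1, an HSP90 partner also known as morgana. Its log2 values in DCT/CNT were 10.56 and 10.48 at ZT0, 10.13 and 10.20 at ZT4, 10.22 and 10.11 at ZT8, 10.36 and 10.24 at ZT12, 10.98 and 10.56 at ZT16 and 10.65 and 10.42 at ZT20. In CCD they were 10.78 and 10.76 at ZT0, 10.48 and 10.48 at ZT4, 10.28 and 10.51 at ZT8, 10.72 and 10.69 at ZT12, 11.13 and 10.88 at ZT16 and 10.68 and 10.82 at ZT20. The highest DCT/CNT value was that of pool 1 at ZT16, while pool 2 at that time lay within the values of ZT0 and ZT20. The amplitude was 0.28 (SE 0.06) in DCT/CNT with a peak at ZT18.5 (limma adjusted p = 0.0192) and 0.26 (SE 0.06) in CCD with a peak at ZT17.9, which missed the threshold (limma adjusted p = 0.0585). In CCD the gene was called when pool 1 of DCT/CNT at ZT16 was left out (limma adjusted p = 0.0228), in a fit where both segments share 1 residual variance per gene.

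The mitochondrial chaperonin pair, HSP60 from Hspd1 and its lid HSP10 from Hspe1, had the same fitted peak time in DCT/CNT. In DCT/CNT Hspd1 values were 12.37 and 12.37 at ZT0, 12.20 and 12.26 at ZT4, 11.99 and 12.13 at ZT8, 12.26 and 12.26 at ZT12, 12.53 and 12.41 at ZT16 and 12.35 and 12.48 at ZT20, and in CCD they were 12.43 and 12.41 at ZT0, 12.27 and 12.35 at ZT4, 12.29 and 12.14 at ZT8, 12.41 and 12.27 at ZT12, 12.55 and 12.49 at ZT16 and 12.50 and 12.40 at ZT20. In DCT/CNT Hspe1 values were 12.49 and 12.34 at ZT0, 12.29 and 12.30 at ZT4, 12.06 and 11.97 at ZT8, 12.32 and 12.31 at ZT12, 12.63 and 12.50 at ZT16 and 12.50 and 12.48 at ZT20, and in CCD they were 12.62 and 12.52 at ZT0, 12.50 and 12.56 at ZT4, 12.44 and 12.21 at ZT8, 12.45 and 12.30 at ZT12, 12.85 and 12.76 at ZT16 and 12.60 and 12.54 at ZT20. Both DCT/CNT courses had their lowest pair of values at ZT8, with no overlap with the ZT16 pair. Hspd1 had an amplitude of 0.18 (SE 0.04) in DCT/CNT with a peak at ZT19.2 (limma adjusted p = 0.0184), against 0.13 (SE 0.04) in CCD (limma adjusted p = 0.151). Hspe1 had an amplitude of 0.23 (SE 0.05) in DCT/CNT with a peak at ZT19.2 (limma adjusted p = 0.0300), against 0.16 (SE 0.05) in CCD (limma adjusted p = 0.231). Hspe1 missed the threshold without pool 1 of DCT/CNT at ZT16 (limma adjusted p = 0.0541), and Hspd1 kept its call there. The third mitochondrial member, the HSP70 Hspa9 (mortalin), had an amplitude of 0.11 (SE 0.03) in DCT/CNT and was not called (limma adjusted p = 0.121).

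Cct8 encodes the theta subunit of TRiC, the cytosolic ring chaperonin that folds actin and tubulin. In DCT/CNT its values were 10.11 and 10.20 at ZT0, 9.94 and 10.00 at ZT4, 9.75 and 9.75 at ZT8, 9.83 and 9.80 at ZT12, 10.19 and 10.20 at ZT16 and 10.08 and 10.01 at ZT20. In CCD they were 10.41 and 10.48 at ZT0, 10.19 and 10.33 at ZT4, 10.03 and 10.21 at ZT8, 10.25 and 10.19 at ZT12, 10.45 and 10.51 at ZT16 and 10.37 and 10.46 at ZT20. The lowest values in DCT/CNT were those of ZT8, and the pools of ZT16 and ZT0 overlapped at the top. The amplitude was 0.19 (SE 0.04) with a peak at ZT20.7 in DCT/CNT (limma adjusted p = 0.0272) and 0.17 (SE 0.04) with a peak at ZT20.0 in CCD (limma adjusted p = 0.0894). It was the 1 called member of 7 measured TRiC genes. The other 6 had DCT/CNT amplitudes from 0.04 in Cct2 to 0.14 in Cct5. In a fit over all probe sets, a dim one of Cct4 with a mean of 5.34 was called in DCT/CNT (amplitude 0.44, limma adjusted p = 0.0496). The other Cct4 probe sets were not called there, among them those with means of 11.16, 10.82 and 10.64 (limma adjusted p = 0.528, 0.455 and 0.561). The Cct8 call was lost once array medians were made equal (limma adjusted p = 0.0533), and it was lost in 4 of 24 omissions of 1 array.

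None of the rhythms differed between the segments by test. The rhythm difference was called for 0 of 37 members by limma, and 0 had an unadjusted p under 0.05, against 0.011% of all genes called. The fitted peaks of the 5 called genes lay between ZT17.7 and ZT20.7 in DCT/CNT and between ZT16.8 and ZT20.0 in CCD, with at most 0.908 h between the segments. Passing the test in DCT/CNT and missing it in CCD therefore does not show a difference between the segments.

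**Figure D2:**
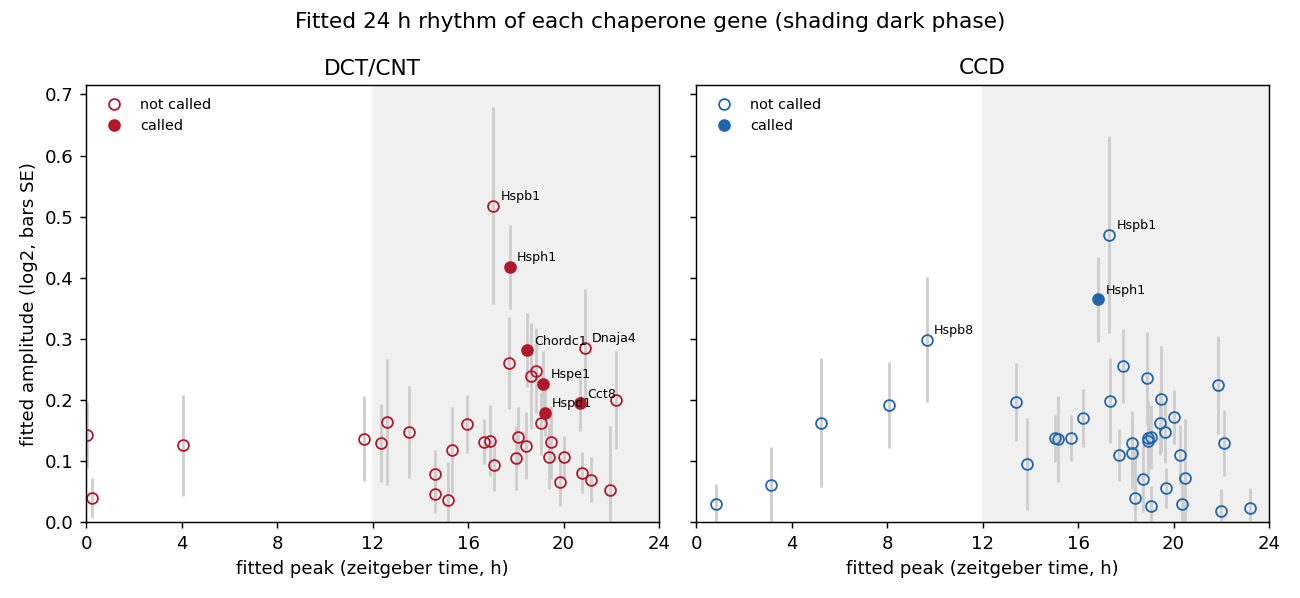
Fitted amplitude (vertical axis, log2 units, bars SE) against fitted peak time (horizontal axis, zeitgeber time in hours) of the 37 chaperone genes, with filled points for called genes. The 5 called genes in DCT/CNT and the 1 in CCD lie in the shaded dark phase, and Hspb1 has the largest amplitude in both segments without being called.

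Among the small heat shock proteins, which hold unfolded chains without ATP, Hspb1 (HSP25 in mouse) had the largest amplitude and the widest spread. Its values in DCT/CNT were 7.38 and 7.48 at ZT0, 7.77 and 7.65 at ZT4, 7.08 and 7.42 at ZT8, 7.63 and 7.62 at ZT12, 9.37 and 8.16 at ZT16 and 7.79 and 8.09 at ZT20. In CCD they were 8.09 and 8.11 at ZT0, 7.92 and 8.08 at ZT4, 8.11 and 8.25 at ZT8, 8.13 and 7.84 at ZT12, 9.52 and 8.82 at ZT16 and 8.58 and 8.65 at ZT20. The pools of ZT16 differed by more than 1 log2 unit in DCT/CNT, and pool 1 was the highest array in both segments. The amplitude was 0.52 (SE 0.16) in DCT/CNT with a peak at ZT17.1 and 0.47 (SE 0.16) in CCD with a peak at ZT17.3, and neither was called (limma adjusted p = 0.107 and 0.269). A dimmer Hspb1 probe set was called in DCT/CNT, with an amplitude of 0.60 and a peak at ZT16.4 (limma adjusted p = 0.0347), and missed the threshold in CCD (amplitude 0.42). Without pool 1 of DCT/CNT at ZT16 the DCT/CNT amplitude was 0.29 (limma adjusted p = 0.293). Hspb8, the BAG3 partner, was not called and had its fitted peak at ZT12.6 in DCT/CNT and ZT9.65 in CCD.

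The inducible HSP70 genes Hspa1a and Hspa1b and the J protein gene Dnajb1 were not called in either segment. In DCT/CNT Hspa1b values were 10.71 and 10.99 at ZT0, 10.65 and 10.85 at ZT4, 10.97 and 10.77 at ZT8, 11.01 and 10.71 at ZT12, 11.36 and 11.13 at ZT16 and 10.58 and 10.56 at ZT20, and in CCD they were 11.66 and 11.68 at ZT0, 11.60 and 11.75 at ZT4, 11.80 and 11.67 at ZT8, 11.65 and 11.94 at ZT12, 11.98 and 11.77 at ZT16 and 11.54 and 11.82 at ZT20. Both DCT/CNT pools were highest at ZT16 and lowest at ZT20, with an amplitude of 0.15 (SE 0.08) in DCT/CNT and 0.09 (SE 0.08) in CCD (limma adjusted p = 0.391 and 0.823). Hspa1a had an amplitude of 0.13 (SE 0.08) in DCT/CNT and 0.04 (SE 0.08) in CCD (limma adjusted p = 0.555 and 0.974), and its fitted DCT/CNT peak, ZT4.06, was in the light phase. Dnajb1, the HSP40 that heat induces together with HSP70, had an amplitude of 0.04 (SE 0.06) in DCT/CNT and 0.06 (SE 0.06) in CCD (limma adjusted p = 0.905 and 0.890). Hspa8, the constitutive HSP70 (HSC70), had its highest pair of values at ZT16 in each segment, at 13.58 and 13.45 in DCT/CNT and 13.61 and 13.58 in CCD. Its amplitude was 0.09 (SE 0.04) in DCT/CNT and 0.11 (SE 0.04) in CCD, not called (limma adjusted p = 0.306 and 0.360). Hspa2, Hspa14 and the HSP110 relative Hspa4l were not called in either segment.

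Of the J proteins 0 of 7 were called by limma. An unadjusted p under 0.05 was reached by 4 in DCT/CNT and 5 in CCD, against 24.5% and 14.2% of all genes. The J proteins nearest to a call were Dnajb2 (amplitude 0.25, SE 0.07, limma adjusted p = 0.0726), Dnajb6 (0.13, SE 0.04, limma adjusted p = 0.0751) and Dnaja1 (0.16, SE 0.05, limma adjusted p = 0.0864), all in DCT/CNT. The probe sets of Dnaja1 disagreed on the call. In a fit over all probe sets that name 1 gene, its other probe sets had DCT/CNT amplitudes of 0.28 (limma adjusted p = 0.00956) and 0.26 (limma adjusted p = 0.0173), and peaks at ZT16.8 and ZT16.6. Hspa4 is an HSP110 relative with the same kind of disagreement. Its kept probe set had an amplitude of 0.08 in DCT/CNT and 0.06 in CCD, and another had 0.17 and 0.21 (limma adjusted p = 0.0425 in DCT/CNT and 0.0251 in CCD). Hsp90aa1, the inducible cytosolic HSP90, had an amplitude of 0.16 (SE 0.05) in DCT/CNT and 0.15 (SE 0.05) in CCD, not called (limma adjusted p = 0.121 and 0.290). A dimmer probe set of the gene was called in CCD (amplitude 0.25, limma adjusted p = 0.0262). Another, with a mean of 4.77, was called in DCT/CNT (amplitude 0.27, limma adjusted p = 0.0208). The dimmest, with a mean of 4.28, was called in neither segment.

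The 8 co-chaperones all had fitted peaks in the dark phase in both segments, against 56.4% of all genes in DCT/CNT and 45.8% in CCD. Chordc1 was the 1 co-chaperone called. Ahsa1, the activator of the HSP90 ATPase, had 9.16 and 9.54 at ZT8 and 10.41 and 9.91 at ZT16 in DCT/CNT, and 9.95 and 10.01 at ZT8 and 10.55 and 10.53 at ZT16 in CCD. Its amplitude was 0.26 (SE 0.08) in DCT/CNT and 0.24 (SE 0.08) in CCD (limma adjusted p = 0.0826 and 0.218). Stip1 (HOP), which links HSP70 to HSP90, had an amplitude of 0.24 (SE 0.09) in DCT/CNT and 0.20 (SE 0.09) in CCD (limma adjusted p = 0.178 and 0.451). The remaining co-chaperones Bag2, Bag3, Fkbp4, Cacybp and St13 had amplitudes from 0.11 to 0.20 in DCT/CNT and from 0.11 to 0.22 in CCD. Bag2 in DCT/CNT was called by the F test over the 6 group means, which assumes no cosine shape (limma adjusted p = 0.0312), as was Dnajb2 (limma adjusted p = 0.00657). By the same F test Hsph1, Hspe1 and Cct8 were called again in DCT/CNT, and Chordc1 and Hspd1 were not (limma adjusted p = 0.0661 and 0.115). Hsf2, the 1 heat shock factor measured, had an amplitude of 0.05 (SE 0.10) in DCT/CNT and 0.16 (SE 0.10) in CCD (limma adjusted p = 0.933 and 0.734).

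Although few members were called singly, most had their highest group mean at the same time. The highest of the 6 group means was at ZT16 for 29 of 37 members in DCT/CNT and for 25 of 37 in CCD. Of all genes 17.1% in DCT/CNT and 13.9% in CCD were highest at ZT16. In both segments at once it was 23 members and 3.47% of all genes. The pattern was noticed in these data, so the counts are a description with no test, and members share arrays and are not independent of each other. The lowest mean was at ZT8 for 18 members in DCT/CNT and 15 in CCD, against 20.9% and 15.3% of all genes. The fitted peak lay between ZT12 and ZT24 for 33 members in DCT/CNT and 32 in CCD, against 56.4% and 45.8% of all genes. Among markers of tubule cells such a peak was fitted for 12 of 12 proximal tubule markers in DCT/CNT (2 called) and 10 of 12 in CCD (0 called by limma, with an unadjusted p under 0.05 in 3), and for 8 of 9 DCT and CNT markers in DCT/CNT (5 called) and 6 of 9 in CCD (1 called). It was fitted for 4 of 8 principal cell markers and 3 of 6 thick ascending limb markers in each segment. Intercalated cell markers went the other way, with such a peak in 0 of 7 in DCT/CNT and 2 of 7 in CCD. Of these 7, 2 were called in DCT/CNT and 0 in CCD by limma. The median sine term, which is negative for a dark-phase peak, was -0.10 over the members in both segments, and -0.02 in DCT/CNT and 0.01 in CCD over all genes. The median amplitude was 0.13 in DCT/CNT and 0.14 in CCD, against 0.13 and 0.10 over all genes.

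**Figure D3:**
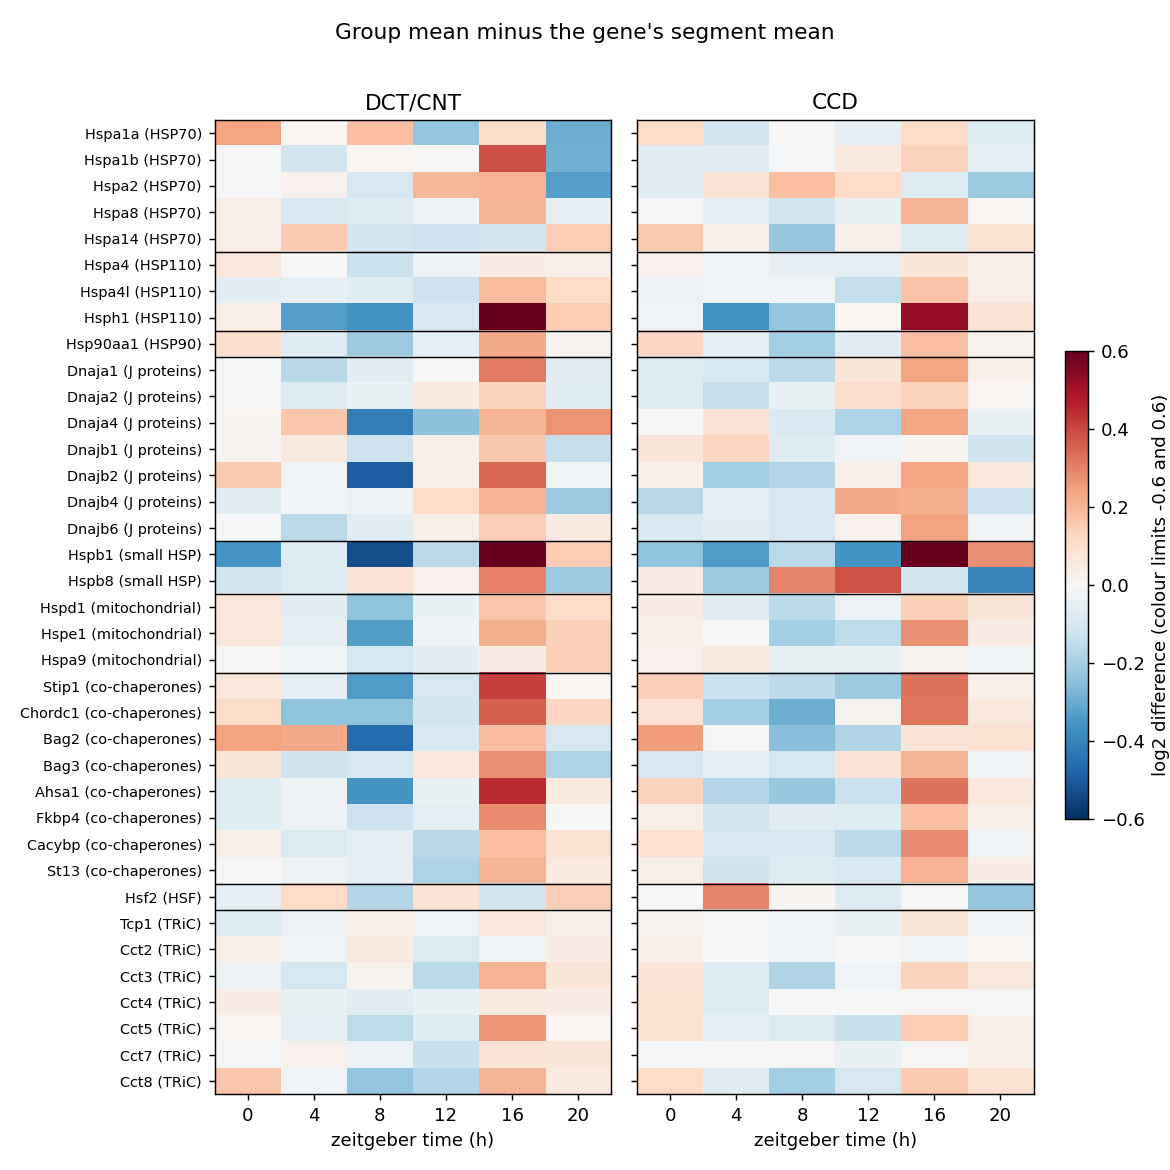
Group mean minus the gene's mean over its segment (colour, log2 units, limited at -0.6 and 0.6) for the 37 chaperone genes in rows, ordered by role, and 6 zeitgeber times in columns. The ZT16 column is red for most HSP110, J protein and co-chaperone genes in both segments, and several TRiC rows are pale throughout.

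Pool 1 of ZT16 bore on this count. The mean over the 37 members in DCT/CNT was 10.85 in pool 1 and 10.63 in pool 2 of ZT16, and 10.32 to 10.57 on the other arrays. In CCD it was 11.11 and 11.06 at ZT16, and 10.81 to 10.95 on the other arrays. Both pools of ZT16 were therefore above all others in each segment. Without pool 1 of ZT16 in DCT/CNT the number of members highest at ZT16 there was 17 of 37, and without pool 1 of ZT16 in CCD it was 23 of 37 in CCD. That pool also had the lowest thick ascending limb marker mean in each segment, and the part of this in the result was not tested. With the proximal tubule and thick ascending limb marker means as added terms, a fit chosen after seeing the data, 3 members were called in DCT/CNT (Hsph1, Chordc1 and Cct8) and 2 in CCD.

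**Figure D4:**
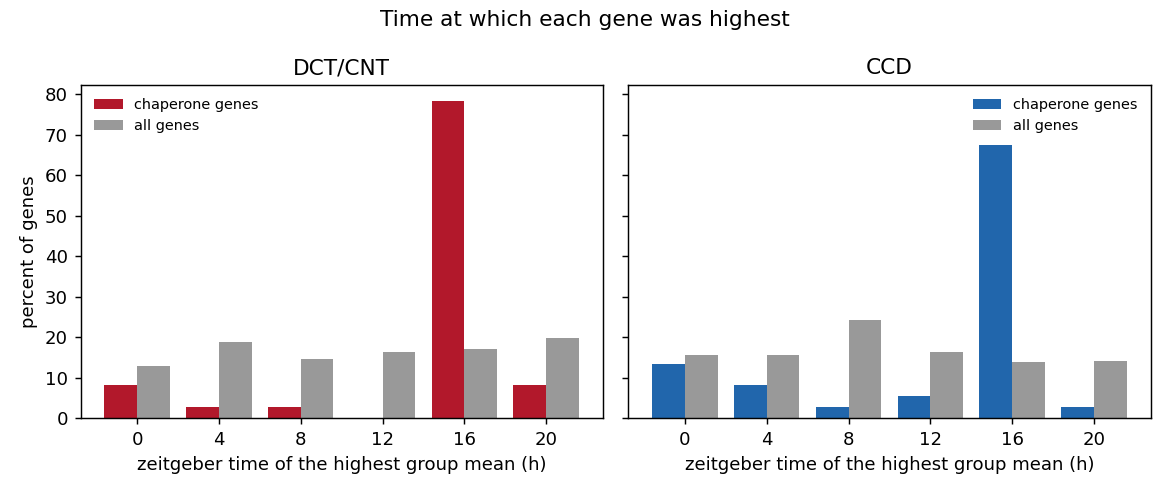
Percent of genes (vertical axis) whose highest group mean fell at each zeitgeber time (horizontal axis, hours), for the 37 chaperone genes in colour and all 18194 genes in grey. The chaperone bars at ZT16 stand for 29 genes in DCT/CNT and 25 in CCD.

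Immediate early genes, such as Fos and Nr4a1, are switched on within minutes of cell stress and can rise during dissection. Of the 20 measured, 7 were called in DCT/CNT and 6 in CCD, against 6.57% and 2.47% of all genes. By limma 0 of these immediate early calls had a dark-phase peak. The mean of the 20 genes in DCT/CNT was 9.64 and 9.98 at ZT0 and 9.63 and 9.53 at ZT16. In CCD it was 10.33 and 10.55 at ZT0 and 9.91 and 10.08 at ZT16. The immediate early mean was not highest at ZT16, the time at which most chaperones were, and the part of dissection in either pattern was not tested. The cold-inducible RNA-binding protein gene Cirbp had its lowest group mean in each segment at ZT16, with values of 8.13 and 8.34 in DCT/CNT and 8.95 and 9.16 in CCD. Pool 1 of ZT20 in DCT/CNT, at 8.27, lay between the ZT16 values of that segment. Cirbp was called in both segments, with a peak at ZT7.47 in DCT/CNT and ZT6.05 in CCD, which lay 10.3 h and 10.8 h from the Hsph1 peak.

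Related chaperones outside the list were measured beside them. In the endoplasmic reticulum 9 of 16 chaperone and unfolded protein response genes were called in DCT/CNT and 4 of 16 in CCD, all with dark-phase peaks. Of all genes 2.8% and 1.15% were called with such a peak. Hspa5 (BiP), the HSP70 of that compartment, had 12.56 and 12.65 at ZT0, 11.85 and 11.78 at ZT8 and 12.78 and 12.57 at ZT16 in DCT/CNT. In CCD it had 12.53 and 12.67 at ZT0, 12.13 and 12.00 at ZT8 and 12.97 and 12.71 at ZT16. Its amplitude was 0.47 in DCT/CNT and 0.36 in CCD (limma adjusted p = 0.00139 and 0.0220). Of 46 further chaperones and co-chaperones, such as prefoldins and other J proteins, 5 were called in DCT/CNT and 1 in CCD, against 6.57% and 2.47% of all genes. A dark-phase peak was fitted for 24 and 21 of them (52.2% and 45.7%), against 56.4% and 45.8% of all genes. These peak shares and the CCD count were close to the background. Of the further chaperones Cryab (alpha B crystallin) was called in both segments, with amplitudes of 0.25 (SE 0.05) in DCT/CNT and 0.23 (SE 0.05) in CCD. Its peaks were at ZT20.2 and ZT19.3 (limma adjusted p = 0.00899 and 0.0344). Fkbp5, a glucocorticoid-induced HSP90 partner, was called in DCT/CNT with a peak at ZT14.4 (amplitude 0.34, SE 0.08, limma adjusted p = 0.0276).

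The promoter element was set beside these calls. It was shown because called genes carry it, so the counts are a description with no test. Hspd1 and Hspe1 share the same run of 18 bases and are not separate sites. Of the 5 members that hold GAANNTTCNNGAA, 4 were called in DCT/CNT and Dnajb6 was not. Of the 27 members with a window and no such match, 1 was called, Cct8. Among the 83 other genes of the array table with the element, 4 were called in DCT/CNT (4.82%), against 6.62% of all genes with a window. The clock factor element CACGTG was in 3 of 32 members and in 10.2% of all genes with a window.

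The second comparison was of level between the segments. In the deposited values 30 of 37 members were lower in DCT/CNT than in CCD (81.1%), against 47% of all genes called in that direction, and 2 were higher (5.41%), against 30.4%. In either direction 77.4% of all genes were called. Dnaja4, Hspb8, Hspd1, Cct4 and Cct7 did not pass. The median member difference was -0.33, and that of all genes was -0.13. This count depended on the scale of the arrays, since the interquartile range of all values was 3.49 (SD 0.11) on DCT/CNT arrays and 4.20 (SD 0.07) on CCD arrays (n = 12 each). With arrays brought to equal medians 20 members were lower and 7 higher, after quantile normalization 12 and 14, and after cyclic loess 11 and 18. Of all 18194 genes 6044 were lower and 7966 higher with equal medians, 5750 and 6013 after quantile normalization, and 6017 and 6051 after cyclic loess. The median member difference was then -0.12, 0.04 and 0.06, against 0.08, 0.01 and 0.00 over all genes.

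Under all 4 scalings 11 members were called lower in DCT/CNT and 2 higher. The matching share of all genes was not counted, so these counts cannot be set against the background. In the deposited values 11 of 37 members, not all of them the same genes, had no overlap between the arrays of the segments. That count was close to the share of all genes, which was 27.8%. Hspa1a had a lowest, median and highest value of 9.50, 9.91 and 10.31 in DCT/CNT, and 10.72, 10.99 and 11.22 in CCD. The difference was -1.08 (SE 0.07, limma adjusted p = 7.40e-10) and stayed between -1.08 and -0.64 over the scalings. Hspa1b had 10.56, 10.81 and 11.36 in DCT/CNT, and 11.54, 11.71 and 11.98 in CCD, a difference of -0.88 (SE 0.06) that lay between -0.88 and -0.50. The arrays of both inducible HSP70 genes did not overlap between the segments. Hspa2, a further HSP70, had 8.05, 8.57 and 9.0 in DCT/CNT and 9.44, 9.74 and 9.92 in CCD, a difference of -1.13 (SE 0.06) that lay between -1.13 and -0.65.

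The J protein Dnajb4 had a lowest, median and highest value of 10.49, 10.71 and 11.06 in DCT/CNT and 11.58, 11.81 and 12.22 in CCD. Its difference of -1.15 (SE 0.06, limma adjusted p = 1.06e-10) was the largest among the kept probe sets of the members and lay between -1.15 and -0.77 over the scalings. Size and rank depended on the probe set. In the fit over all probe sets a dimmer one of Dnajb4 gave -0.20 (limma adjusted p = 0.0503), and its dimmest, with a mean of 4.50, gave 0.14. The other probe sets of Hspa1b gave -1.25 and -1.49. Fkbp4 (FKBP52), the immunophilin that joins HSP90 to steroid receptors, had 10.58, 10.74 and 11.19 in DCT/CNT and 11.46, 11.73 and 11.96 in CCD. Its difference was -0.95 (SE 0.06) and lay between -0.95 and -0.57. Bag2, an HSP70 nucleotide exchange factor that inhibits the ligase CHIP, had 7.48, 8.21 and 8.38 in DCT/CNT and 8.77, 9.05 and 9.30 in CCD, a difference of -0.95 (SE 0.05) that lay between -0.95 and -0.48. These 3 genes did not overlap between the segments either. The other members lower under all scalings were Dnaja2, Dnaja1, Dnajb1, Bag3 and Hsph1, with deposited differences of -0.69, -0.56, -0.55, -0.54 and -0.48, and with -0.31, -0.27, -0.22, -0.17 and -0.12 at the end of the range nearest to 0.

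**Figure D5:**
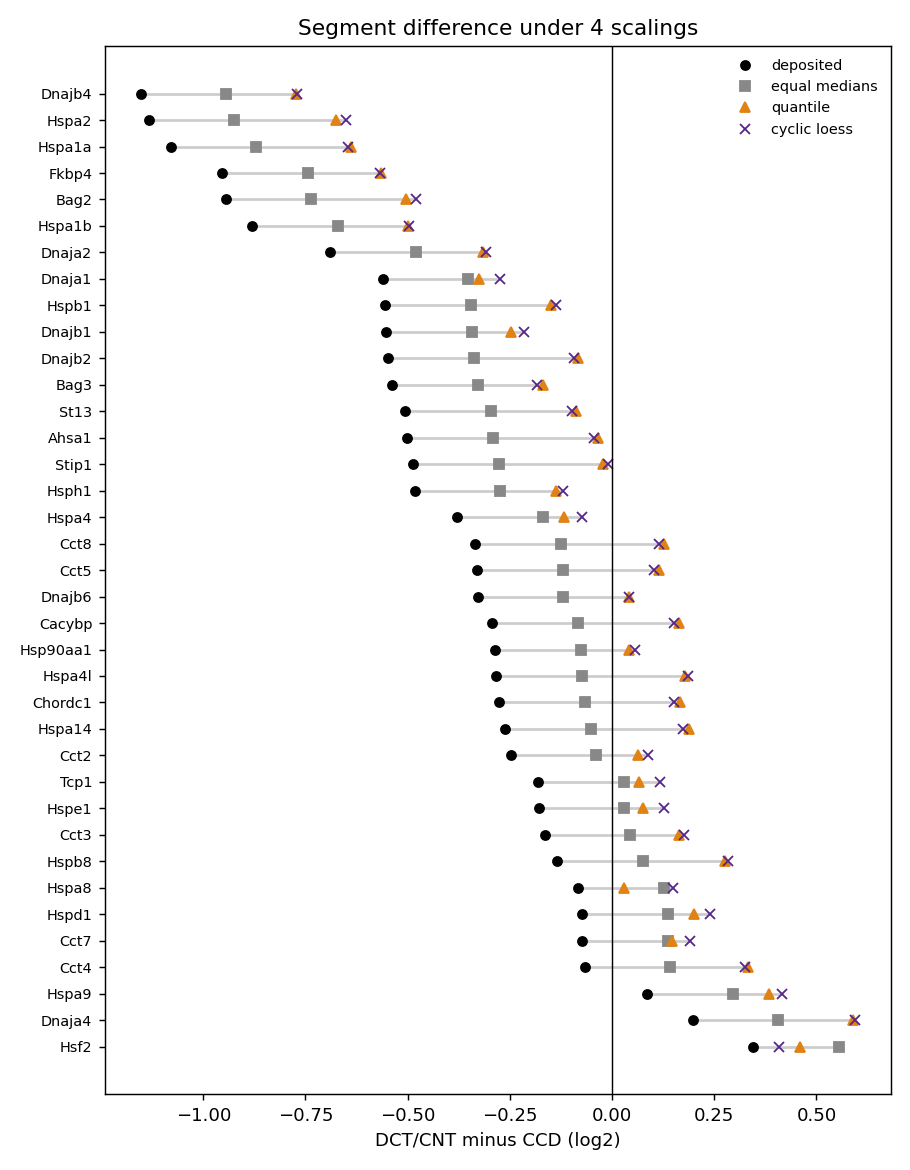
DCT/CNT minus CCD (horizontal axis, log2 units) of the 37 chaperone genes under the deposited values and 3 rescalings, each a symbol, with a line joining the lowest and the highest. The 11 genes called lower under all scalings include the uppermost rows, from Dnajb4 to Dnaja1, while the 7 TRiC genes, Hspd1 and Hspe1 cross 0 and Hspa9 lies above it.

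Hsf2 and Hspa9 were called higher in DCT/CNT under all 4 scalings, but the Hspa9 call in the deposited values was lost in 16 of 24 omissions of 1 array (limma adjusted p up to 0.0892). Hsf2 had a lowest, median and highest value of 6.17, 6.69 and 7.34 in DCT/CNT, and 5.93, 6.28 and 6.75 in CCD, so the arrays overlapped. Its difference was 0.35 (SE 0.11, limma adjusted p = 0.00930) and lay between 0.35 and 0.56. The kept Hsf2 probe set had a mean of 6.49. The other one, dim with a mean of 2.99, gave -0.11 in the deposited values and was not called (limma adjusted p = 0.184). Hspa9 had 12.03, 12.16 and 12.41 in DCT/CNT, and 11.99, 12.11 and 12.16 in CCD, a difference of 0.09 (SE 0.04, limma adjusted p = 0.0438) that lay between 0.09 and 0.41. Its second brightest probe set went the other way in the deposited values, with a difference of -0.20 (limma adjusted p = 0.000217), so the direction of Hspa9 was not settled. By role, 5 of 7 TRiC genes were lower in DCT/CNT in the deposited values and 0 higher, while after cyclic loess 0 were lower and 7 higher. The immediate early genes were called lower in DCT/CNT in 13 of 20 and higher in 1, and after cyclic loess in 11 and 5. Their part in the lower level of the inducible HSP70 genes in DCT/CNT was not tested.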

How the data were processed

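Expression was measured on 24 oligonucleotide arrays. The authors deposited log2 values made with RMA, per the submitters' processing notes, in 1 table of 45101 probe sets. The software version is not given in the sources used here, nor whether both segments were normalized in 1 run. They entered the fits unchanged. The labels name no batch, so none was modelled, and dim genes were kept. Probe sets were named through the platform's probe table: 34958 named 1 gene symbol, 932 several and 9211 none. For 26 of the members more than 1 probe set was available.

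With limma 3.58.1 in R 4.3.3, a 24 h cosine and sine were fitted to both segments in 1 model over all 18194 genes, and rhythm was tested by the moderated F test. The segment difference was taken over the 12 group means. Benjamini-Hochberg adjustment ran over all genes, and a call is an adjusted p under 0.05. Groups came from the sample titles. SE is that of the fit, and SD is between arrays. The fits were tested on simulated data.

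Members and gene lists were chosen with earlier results of these data known. All members could be named, with values by pool for the called ones, the lowest, median and highest value for the 6 largest segment differences each way, and up to 4 genes of other lists, with Cirbp always. Dnajb2 and Bag2 under the F test, and the other probe sets named, were chosen after their values were seen. Alternatives were 3 rescalings, a filter on dim genes, the mean of a gene's probe sets, array weights, replicate blocks, each segment alone, other models and leaving out each array or time.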

Additional observations from a re-analysis of the deposited data

How the results depend on the processing

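With 2 pools per group, a rhythm of low amplitude could be missed, and the labels do not say whether pools share animals. The 0 calls of a rhythm difference by limma held in every alternative run. Called members in DCT/CNT numbered 5, and 8 after cyclic loess or with genes of a mean under 6 left out, 1 with the segment fitted alone, and 3 with covariates for proximal tubule and thick ascending limb RNA. Leaving out 1 array gave 2 to 9, and leaving out ZT0, ZT4, ZT8, ZT12, ZT16 or ZT20 gave 2, 3, 1, 1, 2 and 9. Hsph1 kept its call in DCT/CNT in all these omissions. In CCD the count of 1 became 4 with dim genes left out, with array weights or with the segment alone, and 2 with the mean of probe sets or the covariates. It was 0 to 2 without 1 array (0 without pool 1 of CCD at ZT16), 0 without ZT4 or ZT8 and 2 without ZT20. Over all genes, the DCT/CNT count of 1195 was 450 by the F test on group means, 788 under array weights, 627 with the covariates and 226 with the segment alone, and the CCD count of 449 was 117, 846, 283 and 456. Members highest at ZT16 in DCT/CNT numbered 17 without pool 1 of that time and 26 to 32 in the other alternatives.

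Of the members called in DCT/CNT, Cct8 lost the call when probe sets were averaged (limma adjusted p = 0.398), where its second probe set is dim, and Hspe1 lost it under array weights. The F test on group means gave 5 calls, without Chordc1 and Hspd1 and with Bag2 and Dnajb2. Cct8, Hspe1, Chordc1 and Hspd1 lost the cosine call in 4, 4, 1 and 1 of 24 omissions of 1 array, with limma adjusted p up to 0.0746, 0.102, 0.0504 and 0.0561, and each in 4 of 6 omissions of 1 time.

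The members lower in DCT/CNT numbered 30, against 12 after quantile normalization and 11 after cyclic loess. The 2 higher became 7 with equal medians, 14 after quantile normalization and 18 after cyclic loess, 1 with the mean of probe sets, 1 with the pool number as a replicate block, 1 to 2 without 1 array (Hspa9 lost in 16 of 24), and 1 without ZT0, ZT12, ZT16 or ZT20. Among the 30 called lower, the difference turned positive with equal medians for Cct3 (0.045), Hspa8 (0.13), Hspe1 (0.030) and Tcp1 (0.029). After quantile normalization it was positive for Cacybp (0.16), Cct2 (0.065), Cct3 (0.16), Cct5 (0.12), Cct8 (0.13), Chordc1 (0.17), Dnajb6 (0.041), Hsp90aa1 (0.041), Hspa14 (0.19), Hspa4l (0.18), Hspa8 (0.030), Hspe1 (0.076) and Tcp1 (0.066). After cyclic loess it was positive for Cacybp (0.15), Cct2 (0.087), Cct3 (0.18), Cct5 (0.10), Cct8 (0.11), Chordc1 (0.15), Dnajb6 (0.042), Hsp90aa1 (0.056), Hspa14 (0.17), Hspa4l (0.19), Hspa8 (0.15), Hspe1 (0.13) and Tcp1 (0.12). Cct4, Cct7, Hspd1 and Hspb8, below 0 and not called in the deposited values, were positive under all 3 rescalings (Cct4 at 0.14 with equal medians, 0.33 after quantile normalization and 0.33 after cyclic loess). With the mean of probe sets it was positive for Ahsa1 (0.10), whose other probe set was dim (mean 4.19) and had a difference of 0.71. Why the probe sets of Ahsa1 differ was not tested. The pool numbers did not pair the samples: deviations of same-numbered arrays of a time correlated with r of -0.03 to 0.09 between the segments. With the pool number as a replicate block 5 members were called in DCT/CNT, 1 in CCD and 30 lower in DCT/CNT, and with time and pool number as a block 30 were lower and 2 higher.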
